A study of Mus musculus with 8 samples.

Results

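The 10 genes described here carry the unfolded protein response and the integrated stress response, and they were followed in mouse perigonadal white adipose tissue on 8 Illumina MouseRef-8 v2.0 arrays. They were Hspa5, Hsp90b1, Pdia4, Herpud1, Xbp1, Atf4, Ddit3, Asns, Trib3 and Chac1, chosen by name, and a probe belonged to them if its annotation gave the symbol, current or older. All 10 genes had a probe, 14 of the 25697 probes in all. The tissue came from male B6 mice labelled as 15 weeks old that were fed high-fat diet for 3 days. The 5 Con mice carried the floxed Ogt allele (OGT flox/Y) and the 3 FKO mice, their littermates, carried the same allele with Adiponectin-Cre. The Adiponectin promoter drives Cre in adipocytes, so that in FKO mice vessels, immune cells and stroma keep the gene. Group sizes follow the sample labels and the study's figure legends, whereas its methods text gives the sizes the other way round.

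The unfolded protein response starts when misfolded proteins build up in the endoplasmic reticulum (ER). The sensors IRE1 (Ern1), PERK (Eif2ak3) and ATF6 then induce chaperones, folding enzymes and the machinery that sends failed proteins to the proteasome. PERK shares its target, the translation factor eIF2, with kinases that sense lack of amino acids, haem and viral RNA. Phosphorylated eIF2 slows translation in general but favours that of Atf4, and this common route is called the integrated stress response. Adipocytes secrete large amounts of adipokines and matrix proteins, and ER stress of adipose tissue is a known feature of obesity.

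The promoters of 6 of the 10 genes held letters that ATF6, XBP1 or ATF4 are known to read, and they are shown for the reader to set beside the values of each gene. The windows ran from 250 bases before to 50 bases after each annotated start, from RefSeq on GRCm38.p6, and all 10 genes had a window. The ER stress response element (ERSE) was searched as CCAAT followed after any 9 bases by CCACG, its relative ERSE-II as ATTGG followed after any base by CCACG, and the core of the C/EBP-ATF response element (CARE) as TGATG followed after any base by AA, each on both strands, and no matches overlapped. Capitals mark the fixed letters of a match, written as their complement where the match lies on the opposite strand.
Hspa5, chr2:34772005-34772063, plus strand, ERSE: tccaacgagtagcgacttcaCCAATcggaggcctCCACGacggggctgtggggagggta
Hsp90b1, chr10:86705513-86705676, minus strand, ERSE on each strand: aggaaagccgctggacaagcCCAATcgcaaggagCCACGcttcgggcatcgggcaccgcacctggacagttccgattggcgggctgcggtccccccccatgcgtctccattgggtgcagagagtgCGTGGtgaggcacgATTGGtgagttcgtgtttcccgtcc
Herpud1, chr8:94386297-94386407, plus strand, CARE core on the opposite strand and ERSE-II: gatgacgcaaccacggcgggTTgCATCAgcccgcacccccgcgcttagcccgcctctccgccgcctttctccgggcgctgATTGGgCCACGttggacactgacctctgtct
Asns, chr6:7693210-7693252, minus strand, CARE core: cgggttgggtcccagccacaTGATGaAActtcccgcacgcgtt
Chac1, chr2:119351029-119351076, plus strand, CARE core on the opposite strand: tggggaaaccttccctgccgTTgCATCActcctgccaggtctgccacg
Trib3, chr2:152344029-152344056, minus strand, CARE core on the opposite strand: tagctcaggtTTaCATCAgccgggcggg

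ERSE was matched in the windows of Hspa5 and Hsp90b1, against 39 of all 32851 windows of the same length (0.119%). ERSE-II was matched in that of Herpud1, against 12 windows in all (0.0365%). The CARE core was matched in Asns, Chac1, Trib3 and Herpud1, and in 3.97% of all windows, as its letters are fewer. In Asns it began 23 bases before the start and in Hspa5 the ERSE began 65 bases before it, whereas in Trib3 the match lay 14 to 21 bases after the start, inside the transcript. The windows of Pdia4, Xbp1, Atf4 and Ddit3 held none of these letters. A match is a match of letters and not a measured binding site.

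**Figure D1:**
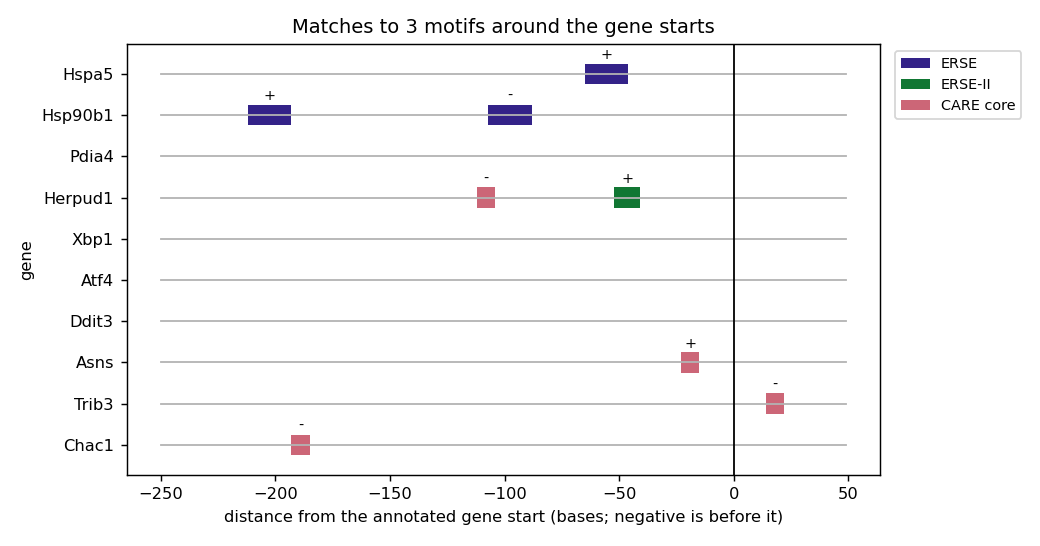
Position of each match (coloured bar, with its strand) from 250 bases before to 50 bases after the annotated start of the 10 genes, in bases. ERSE lies in Hspa5 and Hsp90b1, ERSE-II in Herpud1, and the CARE core in Asns, Chac1, Trib3 and Herpud1.

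Before the stress genes, the labels were set against the deleted gene and the tissue. The brightest Ogt probe read, by array label, 188.4, 263.8, 198.9, 231.8 and 267.4 for Con 1 to Con 5 and 295.8, 176.7 and 259.9 for FKO 1 to FKO 3 (log2 difference 0.08, exact permutation test, two-sided, p = 0.768), so that Ogt did not part the groups. Where its probes lie with respect to the deleted exons was not settled, and all directions between FKO and Con below are directions between labels. The adipocyte marker Adipoq read 7496 to 10666 on the 8 arrays, lowest on FKO 3. Of 14 epididymal marker genes with a probe, 8 were above background, and their summed intensity was 7391 and 13302 on FKO 1 and FKO 3 against 829.3 on FKO 2 and 867.1 to 1596 on the Con arrays. Adam7 (3939 and 7925) and Rnase12 (2263 and 3808) made up most of that sum on FKO 1 and FKO 3. Of the others, Rnase9, Spint4 and Defb20 had log2 differences of 0.97, 1.44 and 1.56, and Lcn8, Cst11 and Defb30 of −0.02, 0.0009 and 0.03. In tissue RNA, fewer cells of a type and less RNA per cell cannot be told apart.

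No gene of the response was called between the labelled groups. Of the 14 probes 13, at least 1 per gene, exceeded the background limit of 106.1 on at least 3 arrays and were tested with limma (two-sided, Benjamini-Hochberg over 13877 probes). A probe of Asns was not tested. Among the 13, 0 were called higher and 0 lower, where 0% of all tested probes were called in either direction (smallest adjusted p = 1). The methods' t-test, run on the same corrected and filtered values, called 0 of the 13 as well, and 0% higher and 0.00721% lower of all. On the deposited values with no correction or filter, an alternative added after seeing the data, it called 0 of the 13 and 1 of all 25697 probes. The log2 differences (FKO minus Con) ran from −0.25 to 0.41, with 5 positive and 8 negative and a median of −0.02, the same as the median of all tested probes. A single member probe, that of Pdia4, had an unadjusted p under 0.05, with the higher value in FKO, as did 4.27% of all tested probes in either direction and 2.3% with FKO higher. Standard errors ran from 0.08 (Trib3) to 0.40 (Asns), so that the intervals of some of these genes were wide. In the text below adjusted p-values from limma were 1 for each member, and exact permutation tests compare the labelled groups over 56 splits, with 0.0179 as the smallest p they allow.

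**Figure D2:**
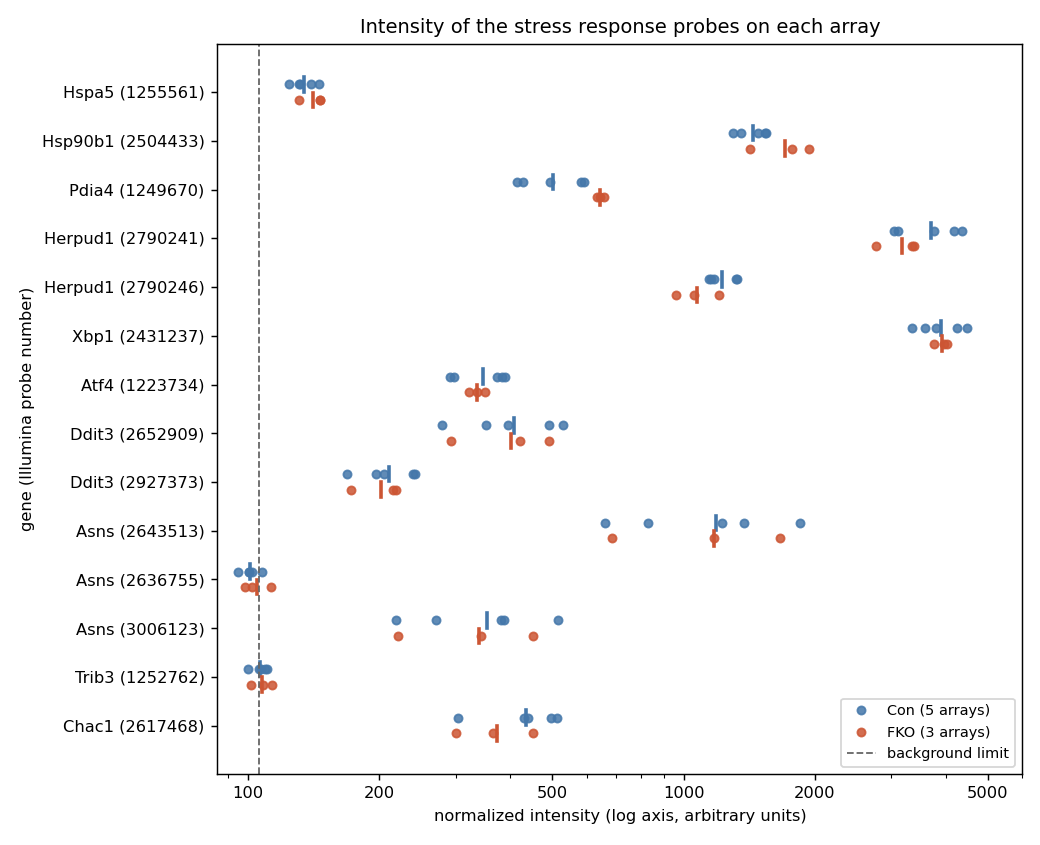
Normalized intensity (log axis) of the 14 probes on each array, with Con in blue and FKO in red, the bars at the group means and the dashed line at the background limit of 106.1. Only for Pdia4 do the groups not overlap, with FKO arrays between 634.3 and 657.8.

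Pdia4 had the largest difference between the labels among the 10 genes. Pdia4 (ILMN_1249670) encodes ERp72, a protein disulfide isomerase of the ER lumen. It read 591.1, 427.2, 582, 414.9 and 492.7 on Con 1 to Con 5 and 641.7, 657.8 and 634.3 on FKO 1 to FKO 3. All 3 FKO arrays were above all 5 Con arrays and lay close together (644.6 ± 12 against 501.6 ± 83.1, mean ± SD, n = 3 and 5). Groups did not overlap in this direction for 1.18% of all tested probes, and for 1 of 13 here. With FKO lower they did not overlap for 0 of 13, against 1.45% of all, which makes 2.63% of all in either direction. The log2 difference was 0.41 (standard error 0.14, 95% interval 0.08 to 0.73), which is a fold of 1.33 (1.06 to 1.66), with exact permutation p = 0.0357 and an adjusted p of 1 from limma. Without FKO 1, FKO 3 and Con 2, the arrays highest in epididymal transcripts, it was 0.38, but FKO 2 was then the only FKO array.

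Hsp90b1 (ILMN_2504433) encodes GRP94, the HSP90 of the ER lumen. It read 1546, 1479, 1301, 1356 and 1541 on Con 1 to Con 5 and 1772, 1422 and 1936 on FKO 1 to FKO 3. FKO 1 and FKO 3 were above every Con array, and FKO 2 lay inside the Con range. The log2 difference of 0.24 (standard error 0.11, 95% interval −0.02 to 0.50, exact permutation p = 0.107) did not pass. FKO 1 and FKO 3 are the arrays with the highest epididymal sum, and without these and Con 2, with FKO 2 as the only FKO array, the difference was −0.01. The part of epididymal RNA in the signal of Hsp90b1 was not tested.

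Hspa5 (ILMN_1255561) encodes BiP, the chaperone that holds the sensors inactive in the unstressed ER. Its only probe read 145.6, 130.8, 139.4, 124.4 and 131.4 on Con 1 to Con 5 and 130.6, 146.1 and 146.1 on FKO 1 to FKO 3. These values lie under 2 times the background limit on all arrays, where folds are compressed. The groups overlapped (log2 difference 0.10, standard error 0.09, 95% interval −0.11 to 0.31, exact permutation p = 0.286). Changes of BiP transcripts themselves may be larger than this probe shows.

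Herpud1 encodes a membrane protein of the ER that takes part in the degradation of misfolded proteins, and it was measured by a bright and a dimmer probe. The bright probe (ILMN_2790241) read 3761, 3109, 4182, 4361 and 3046 on Con 1 to Con 5 and 3384, 3343 and 2770 on FKO 1 to FKO 3. The other (ILMN_2790246) read 1145, 1175, 1323, 1328 and 1154 on Con 1 to Con 5 and 1203, 1057 and 961.7 on FKO 1 to FKO 3. With both probes Con 4 and Con 3 were the highest arrays and FKO 3 the lowest, and the groups overlapped. The log2 differences were −0.21 (standard error 0.14, exact permutation p = 0.232) and −0.20 (standard error 0.10, exact permutation p = 0.125). Neither passed.

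None of the transcription factors of the response passed. Xbp1 (ILMN_2431237) encodes the factor that IRE1 activates by splicing its transcript, and it read 3588, 3343, 4487, 4255 and 3789 on Con 1 to Con 5 and 3968, 3768 and 4030 on FKO 1 to FKO 3. All FKO arrays lay inside the Con range (log2 difference 0.02, standard error 0.10, 95% interval −0.22 to 0.26, exact permutation p = 0.911). Spliced and unspliced Xbp1 were not told apart here, so these values say nothing of IRE1 activity.

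Atf4 (ILMN_1223734) encodes the factor at the centre of the integrated stress response, which is controlled mainly in translation. It read 296.6, 290.5, 383.2, 389 and 372.9 on Con 1 to Con 5 and 335.7, 321.6 and 349.2 on FKO 1 to FKO 3. The FKO arrays again lay inside the Con range, which itself had Con 1 and Con 2 below the other 3 (log2 difference −0.04, standard error 0.13, 95% interval −0.34 to 0.26, exact permutation p = 0.821). The highest array was 1.34 times the lowest, the same ratio as for Xbp1.

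Ddit3 encodes CHOP, the factor that promotes cell death under lasting stress, and it varied more than Atf4. With its brighter probe (ILMN_2652909) it read 489.7, 351, 528.7, 278.3 and 395.2 on Con 1 to Con 5 and 291.7, 490.5 and 420.5 on FKO 1 to FKO 3. Con 3, FKO 2 and Con 1 were the highest and Con 4 and FKO 1 the lowest, so that each group spanned nearly the whole range. The dimmer probe (ILMN_2927373) ran from 169 on Con 4 to 242.1 on Con 3, and its lowest arrays, Con 4, FKO 1 and Con 2, were also those of the brighter probe. The log2 differences were −0.02 (standard error 0.27, 95% interval −0.64 to 0.59, exact permutation p = 0.964) and −0.06 (standard error 0.17, exact permutation p = 0.732). With the brighter probe the sign turned between settings, from −0.33 with array weights and −0.21 without FKO 2 to 0.21 without FKO 1 and 0.29 without FKO 1, FKO 3 and Con 2. The spread of Ddit3 thus lay within the groups, and 6.78% of tested probes had a larger SD over the 8 arrays than its brighter probe.

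**Figure D3:**
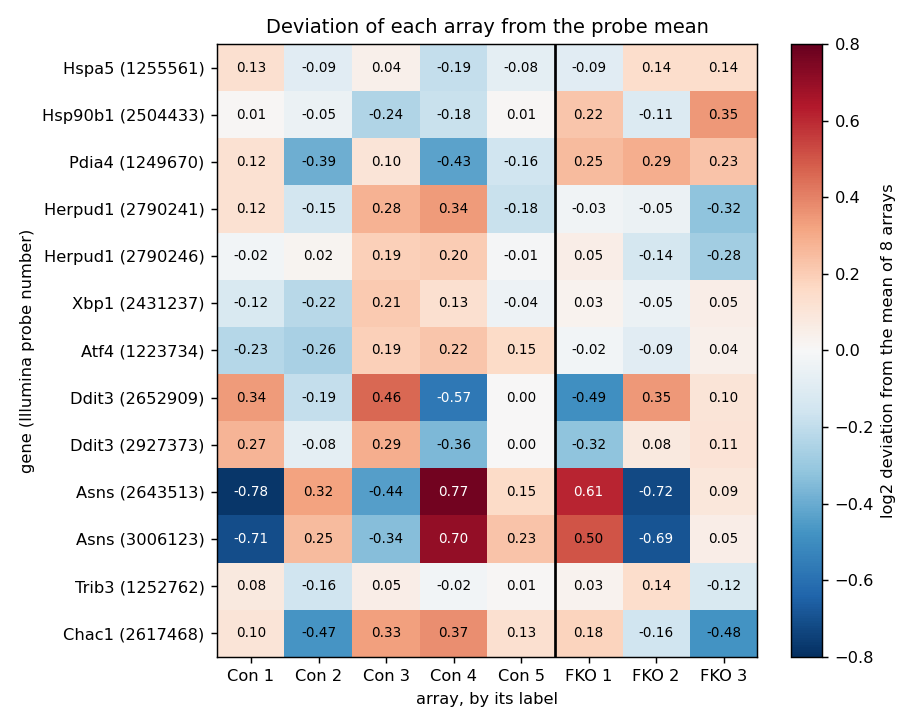
Log2 deviation of each array from the mean of 8 arrays for the 13 tested probes, by array label, with Con left and FKO right of the line. Asns is lowest on Con 1, Con 3 and FKO 2 with both probes (−0.78 to −0.34) and highest on Con 4 and FKO 1, the arrays on which Ddit3 is lowest.

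Among the effectors of the integrated stress response, Asns varied most of all 10 genes. Asns encodes asparagine synthetase and is a classical target of ATF4 when amino acids are short. Its brightest probe (ILMN_2643513) read 659.7, 1373, 826.7, 1854 and 1227 on Con 1 to Con 5 and 1667, 685.6 and 1175 on FKO 1 to FKO 3. The highest array was 2.81 times the lowest, and only 2.52% of tested probes had a larger SD over the 8 arrays (0.59 on the log2 scale, against a median of 0.14 over all). A further probe (ILMN_3006123) read 218.9, 387.5, 270.2, 513.9 and 381.3 on Con 1 to Con 5 and 452.3, 221.4 and 342.1 on FKO 1 to FKO 3, which is the same order of all 8 arrays. The last probe (ILMN_2636755) stayed at background (94.79 to 113.1, above the limit on 2 arrays). With the tested probes the log2 differences between labels were −0.01 (standard error 0.40, 95% interval −0.92 to 0.90, exact permutation p = 0.982) and −0.07 (standard error 0.36, exact permutation p = 0.857). Without FKO 1, FKO 3 and Con 2, a comparison of FKO 2 alone with 4 Con arrays, they were −0.65 and −0.66. With array weights they were 0.43 and 0.32, and without FKO 2 0.35 and 0.25, so that the sign depended on the setting.

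The arrays on which Asns was lowest, Con 1, FKO 2 and Con 3, are those on which all 3 Ogt probes were lowest, and the labels cut across them. The same 3 arrays were the lowest for 11.1% and the highest for 14.3% of all tested probes, so that this order is common on these arrays. Of the 13 member probes, 2 (both of Asns) had them lowest and 2 (the brighter one of Ddit3 and that of Trib3) had them highest. For Asns and Ddit3 (brighter probe), both known targets of ATF4, the arrays were thus ordered nearly in reverse. The dimmer probe of Ddit3 was highest on Con 3, Con 1 and FKO 3 instead. Atf4 followed neither: Con 4 and Con 3 were its highest arrays and Con 2 and Con 1 its lowest.

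The array profile nearest to that of Asns, by the root-mean-square difference of log2 values centred over the 8 arrays, was that of Pde4dip, which encodes myomegalin, an anchor protein of the Golgi and centrosome. The difference was 0.0979, against a median of 0.571 over the 9642 genes compared. Pde4dip read 274.6, 573.3, 362.6, 840.5 and 492.3 on Con 1 to Con 5 and 753.9, 296.2 and 446 on FKO 1 to FKO 3. Like Asns it was lowest on Con 1, FKO 2 and Con 3 and highest on Con 4 and FKO 1. Rbbp9 (0.113), 1700030K09Rik (0.116), Asb13 (0.117) and Nudt12 (0.145) came next. None of these 5 genes is among the 133 tested genes of the pathway lists, which are a small part of the 9642 compared. For Hspa5 the nearest were Yipf6 (0.0346), Ciao1, Bcdin3d, Gtf3c1 and Pik3r2 (0.0513), where the median was 0.184. Their readings lay between 111.7 and 210.1, close to background as those of Hspa5 itself.

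Trib3 (ILMN_1252762) encodes a pseudokinase that is induced by ATF4 and CHOP and restrains AKT. It read 110.8, 99.77, 109.1, 106 and 107.1 on Con 1 to Con 5 and 108.4, 113.6 and 101.7 on FKO 1 to FKO 3. It was above the background limit on 5 of the 8 arrays and nowhere far from it, so its difference of 0.03 (standard error 0.08, exact permutation p = 0.75) carries little information.

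Chac1 (ILMN_2617468) encodes an enzyme that degrades glutathione and is induced through ATF4. It read 430.8, 303.2, 495.7, 510.9 and 438.4 on Con 1 to Con 5 and 450.8, 365.8 and 300.9 on FKO 1 to FKO 3. FKO 3 and Con 2 were lowest and Con 4 and Con 3 highest, and the groups overlapped. The log2 difference was −0.25 (standard error 0.21, 95% interval −0.73 to 0.24, exact permutation p = 0.375). It was −0.09 without FKO 3, −0.13 with array weights, −0.41 without FKO 1 and −0.39 without Con 2, and it passed under none of these. The adipocyte marker sum was likewise lowest on FKO 3 (37578, against 43643 to 50266 on Con). On Con 2, where Chac1 was nearly as low, that sum was 44795, above that of Con 1 (43643). The part of adipocytes in the signal of Chac1 was not tested.

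**Figure D4:**
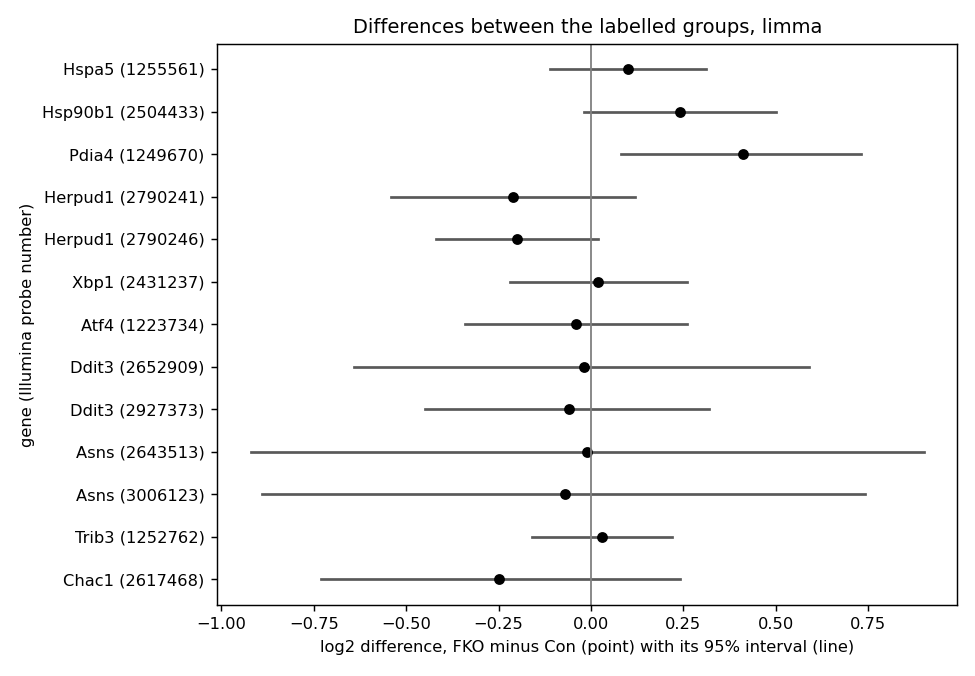
Log2 difference, FKO minus Con, with its 95% interval from limma for the 13 tested probes. Each interval but that of Pdia4 (0.08 to 0.73) includes 0, and those of Asns are the widest.

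Other genes of these pathways were read from 7 lists of 166 genes, of which 148 had a probe and 133 were tested, with the brightest probe of each gene. Of the 133, 0 were called higher and 0 lower, 69 had a positive and 64 a negative difference, and the median was 0.01, against −0.02 over all tested genes. An unadjusted p under 0.05 was found for 9 of them (6.77%, against 4.67% of all 9652 tested genes, counted in the same way). Over all tested genes 43.4% had a positive difference. In the list of ER chaperones and folding enzymes 12 of 20 were positive (median 0.07), in ER translocation and early secretion 18 of 29 (0.05), in ATF4 and CHOP targets 15 of 28 (0.01) and in sensors and eIF2 control 8 of 14 (0.01). In ER-associated degradation 6 of 16 were positive (−0.03), in aminoacyl-tRNA synthetases 7 of 15 (−0.02) and in the mitochondrial stress response 3 of 11 (−0.08).

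Within the secretory lists, Tram1, a membrane protein beside the translocation channel, read 1485, 1335, 1441, 1435 and 1141 on Con 1 to Con 5 and 1682, 1683 and 1750 on FKO 1 to FKO 3. The groups did not overlap, with all FKO arrays higher (log2 difference 0.33, standard error 0.09, exact permutation p = 0.0179, adjusted p = 1 from limma). Its other tested probes gave 0.20 and 0.13. Ero1b, which reoxidizes disulfide isomerases, did not overlap either, at 123.3 to 142.3 on Con and 142.5 to 149 on FKO arrays (0.21, standard error 0.08), close to background. Pdia5, an isomerase like Pdia4, had a difference of 0.22 (standard error 0.11) with its brightest probe and 0.05 with another. Sec24d had −0.12 (standard error 0.08) and Ssr3 0.10 (standard error 0.06), both from the list of translocation and early secretion. As for Pdia4, none of these passed. Tram1, Ero1b, Pdia5, Sec24d and Ssr3 were named for the smallest p in their lists, so that a lack of overlap is no further support. Groups did not overlap for 2.63% of all tested probes in either direction.

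Dnajc10, the ER reductase ERdj5, had the highest log2 difference in the list of ER chaperones and folding enzymes. It read 748.1, 933.5, 743.7, 760.5 and 635.4 on Con 1 to Con 5 and 2853, 677.7 and 4520 on FKO 1 to FKO 3. FKO 1 and FKO 3 were thus high and FKO 2 was not, an order shared with the epididymal marker Adam7 (3939, 117.1 and 7925 on FKO 1 to FKO 3). The log2 difference was 1.48 (standard error 0.54, exact permutation p = 0.0893, adjusted p = 1 from limma), and 0.17 with its other tested probe. Selenos, of ER-associated degradation, followed the same order over the FKO arrays, at 1758, 1244 and 2050 on FKO 1 to FKO 3. On Con it read 1238 to 1556 (difference 0.31, standard error 0.16, and 0.16 with its other tested probe). Its highest Con array was Con 5 (1556), where Adam7 read 132.1, and it read 1355 on Con 2, where Adam7 read 530.6. The part of epididymal RNA in these genes was not tested.

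Among the ATF4 and CHOP targets, Cbs, which condenses homocysteine and serine, read 107.5 to 126.9 on the Con arrays and 137.2, 128.6 and 183.1 on FKO 1 to FKO 3. The groups did not overlap (log2 difference 0.47, standard error 0.16, exact permutation p = 0.0179, adjusted p = 1 from limma). Another tested probe of Cbs gave 0.38. The cystine transporter Slc7a11 read 96.34 to 107.3 on Con and 129.2, 99.83 and 169.2 on FKO arrays (0.55, standard error 0.21), again with FKO 1 and FKO 3 high. It exceeded the background limit of 106.1 only on Con 2 (107.3), FKO 1 and FKO 3. It was thus tested only through the arrays highest in epididymal transcripts. Without FKO 2, limma called Slc7a11 (0.83, adjusted p = 0.0408) and Dnajc10 (2.31, adjusted p = 0.00334), which is 1.5% of the pathway genes, where 1.38% of all tested probes were called higher. FKO 1 and FKO 3, the arrays high in epididymal transcripts, were then the only FKO arrays. Slc7a11 had also passed the filter through them, so that its call cannot decide on a difference between the labels. Jdp2, a repressor of the AP-1 family, read 148.9 to 161.9 on Con and 135.7, 147.6 and 135.7 on FKO arrays, without overlap (−0.21, standard error 0.07, exact permutation p = 0.0179, adjusted p = 1 from limma). These readings are all close to background. Cbs, Slc7a11 and Jdp2 were likewise named for the smallest p in their list, and a lack of overlap is no further support. It was found for 2.63% of all tested probes.

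The tested genes of the sensors and the eIF2 branch differed little between the labels. Of the sensors IRE1, PERK and ATF6, only PERK was tested. Atf6 had no probe here, nor had Eif2s1 of eIF2, and Ern1 had no tested probe. The brightest probe of Mbtps1, the protease that cleaves ATF6, had a difference of 0.16 (standard error 0.08), with 0.12 and 0.14 for its other tested probes. Eif2ak3, which encodes PERK, had −0.11 (standard error 0.10), with readings of 125.9 to 159.9, close to background. Ppp1r15b, which directs dephosphorylation of eIF2, had −0.10 (standard error 0.08). Of the synthetases, which charge tRNAs and are ATF4 targets in part, Vars had 0.11 (standard error 0.09), Qars 0.18 (standard error 0.17) and Wars 0.23 (standard error 0.25). Other tested probes gave 0.15 for Vars and 0.07, 0.20 and 0.22 for Wars. In the mitochondrial list the chaperonins Hspd1 (−0.23, standard error 0.09) and Hspe1 (−0.25, standard error 0.12) were both negative, and Spg7 was positive (0.21, standard error 0.11). Another tested probe of Hspd1 gave −0.39. Qars, Wars and Spg7 were highest on FKO 3, Con 2 and FKO 1, the arrays highest in epididymal transcripts. On FKO 2 they lay inside the Con range, at 650.2, 313.8 and 415.2. The part of epididymal RNA in Qars, Wars and Spg7 was not tested. In ER-associated degradation Faf2 had −0.16 (standard error 0.07) and the brightest probe of Herpud2 0.13 (standard error 0.08). The other tested probes of Herpud2 gave 0.02, 0.07 and −0.05. All of these had an adjusted p of 1 from limma.

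**Figure D5:**
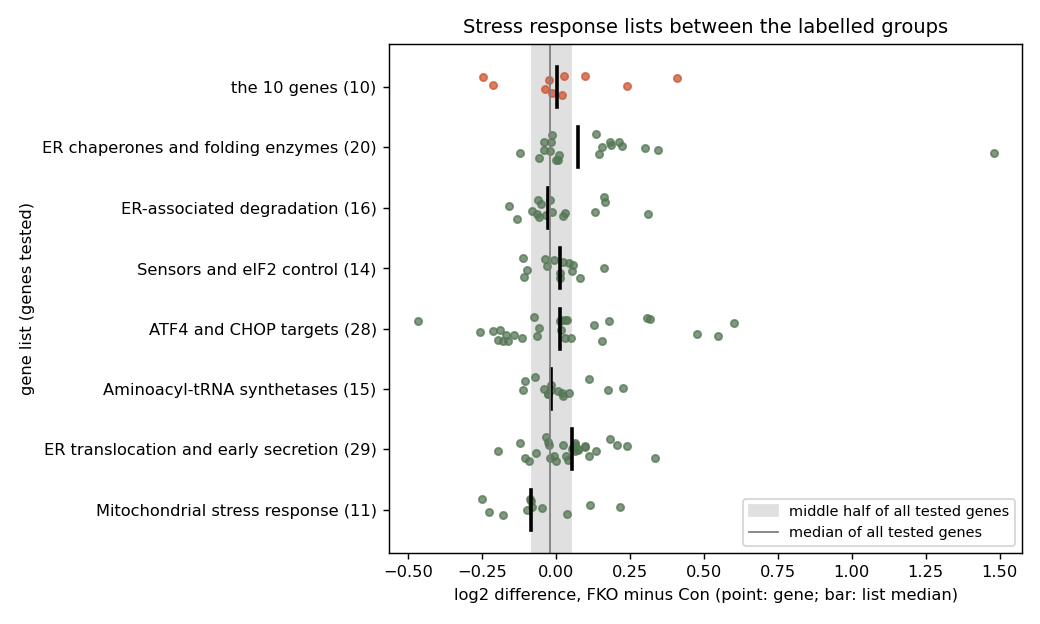
Log2 difference, FKO minus Con, of each tested gene (point) in the 10 genes and 7 lists, with list medians as bars and the middle part of all 9652 tested genes, from −0.08 to 0.05, in grey. List medians lie between −0.08 and 0.07, and Dnajc10 stands apart at 1.48.

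Marker lists of other cells were set beside these values. Of the markers of plasma cells, which use Xbp1 heavily, Jchain, Cd79a and Prdm1 were not above background on enough arrays to be tested. The summed intensity of the 4 tested of 7 markers with a probe was 421.8 to 437.4 on Con and 435.8 to 448.4 on FKO arrays. This is close to the background limit for each of the 4, so that these probes say little about plasma cells. The summed intensity of 7 of 8 macrophage markers was 5399 to 6673 on Con and 4815 to 6236 on FKO arrays. That of 8 of 10 immediate early genes, which respond to handling, was 2720 to 3777 on Con and 2355 to 3346 on FKO arrays. That of the 7 endothelial markers with a probe was 2620 to 3898 on Con and 2195 to 4319 on FKO arrays. It was highest on FKO 2 (4319), Con 1 (3898) and Con 3 (3764), the arrays on which Asns was lowest. The adipocyte marker Plin1 was lowest on these arrays (365, 384 and 439.5), but Adipoq was not. Adipoq read 9915 on FKO 2, 9982 on Con 1 and 10292 on Con 3, against 9337 on Con 2 and 7496 on FKO 3. The adipocyte sum was 45060, 43643 and 45735 on FKO 2, Con 1 and Con 3, and was lowest on FKO 3 (37578). Adipocyte markers had a negative difference in 9 of 10 (median −0.11), progenitor and fibroblast markers in 6 of 8 (−0.12) and mesothelial markers in 6 of 6 (−0.20), and erythroid markers had a positive one in 3 of 3 (0.29). None of these markers was called by limma, which called 0 probes in all. The ranges of the summed intensity overlapped between groups in each list, and the part of these cells in the values of the 10 genes was not tested.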

How the data were processed

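RNA of 8 mice, 5 Con and 3 FKO, was hybridized to 1 array each. The authors quantile-normalized the deposited intensities, which are linear and not background-subtracted. The software is not given in the sources used here. A second deposited table was not used, since its 16 columns match no sample label. Of 25697 probes, 23978 carry 1 gene symbol and 1719 none. Background lies at 98.5, the mode of all values, and its limit of 106.1 mirrors the lower tail. Between 51.5% and 51.6% of probes per array exceed it.

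A normexp correction (offset 50) and quantile normalization preceded the log2 step (R 4.3.3, limma 3.58.1). The fit by group took the 13877 probes (9652 genes) that exceeded the limit on 3 or more arrays, with lmFit and eBayes. The code was tested on simulated data. A gene in a list is given by its brightest probe. The genes named are the members, up to 3 per list with the smallest p, and the 5 nearest profiles of Hspa5 and of Asns. Members and lists were chosen with earlier results of these data known. Each p-value reflects only how these mice varied. Alternatives were other background corrections, scaling, level filters, variance models, array weights, a replicate block, the methods' t-test (p under 0.01, fold above 1.5; added later, on the deposited values) and leaving out arrays. Same-numbered arrays did not deviate together (r from −0.7 to −0.41).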

Additional observations from a re-analysis of the deposited data

How the results depend on the processing

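The count of members called was 0 under each of the alternatives run, the methods' t-test with and without Benjamini-Hochberg adjustment included, and the smallest adjusted p of a member was 0.207, for Hsp90b1 without FKO 2. Over all tested probes the methods' t-test called 1, and on the deposited values without a filter, an alternative chosen after seeing the data, also 1, and leaving out 1 array gave 0 to 193 called probes, with 193 without FKO 2 and 15 without Con 5. Among the pathway genes leaving out 1 array gave 0 to 2. The median difference of the members ran from −0.07 to 0.03 on leaving out 1 array and from −0.09 to 0.03 under the other alternatives. Of the 13 tested member probes, 5 (Hspa5, Pdia4, Chac1 and both of Herpud1) kept their sign or reached 0.00 under every alternative, and 8 changed it. With the replicate block over replicates 1 to 3 the count of members called was 0 and their median was 0.03. Values under 2 times the background limit, those of 3 of the 14 member probes and of 51.6% of all tested probes, compress folds.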

Other observations

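Genes with the same promoter letters were read as a description, over all tested genes with a promoter window. Of 12 tested genes with an ERSE match, 7 had a positive and 5 a negative difference between FKO and Con (median 0.06), and of 7 with ERSE-II 2 were positive and 5 negative (median −0.02). Of 239 with the CARE core 88 were positive and 151 negative (median −0.03), and of all 7841 tested genes with a window 3440 were positive and 4401 negative (median −0.01). None of these was called by limma, which called 0 probes in all.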
